A study of Danio rerio with 4 samples.

Results

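Tudor domain genes of the germline were followed in gonads of untreated adult zebrafish, and 9 of 10 genes named for the purpose were found in a table of 32520 Ensembl genes. They were chosen by symbol: tdrd1, tdrd3, tdrd5, tdrd6, tdrd7a, tdrd7b, tdrd9, tdrd12, tdrkh and stk31. No ID was listed under tdrd7b, so this gene was not analysed here. The symbols of 4 of the 9 are spelled in capitals in the symbol table (TDRD1, TDRD3, TDRD6 and TDRD9) and were matched without regard to case. The Ensembl IDs of the 9 are ENSDARG00000007465 (tdrd1), ENSDARG00000025421 (tdrd3), ENSDARG00000071450 (tdrd5), ENSDARG00000070052 (tdrd6), ENSDARG00000032808 (tdrd7a), ENSDARG00000013453 (tdrd9), ENSDARG00000075217 (tdrd12), ENSDARG00000053474 (tdrkh) and ENSDARG00000056339 (stk31). The samples were 2 testes and 2 ovaries, each library from 1 adult fish (Danio rerio) of the laboratory strain AB, males for testis and females for ovary. None of these fish was treated. They were null controls for work on exemestane, a drug that blocks oestrogen synthesis. The comparison of testis with ovary gives the baseline difference between the sexes.

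The Tudor domains of many germline proteins bind arginines that carry methyl groups. In germ cells, such arginines lie in the tails of Piwi proteins, which use small piRNAs to silence transposons, and Tudor proteins gather Piwi proteins and their partners in granules beside the nucleus. These granules, called nuage in many animals and germ plasm in the egg, are found in germ cells of both sexes in zebrafish. Much of what is known of the single proteins comes from mouse testis, so the source species is named with each role.

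All 9 genes were detected in every library of both tissues. Libraries held between 11554811 and 26137839 counts, and the counts of these genes ran from 778 to 26929 per library. Levels are given as CPM, the count of a gene as a share of its library on a scale of 1e+06, with library sizes adjusted by TMM (trimmed mean of M-values). CPM takes no account of gene length, so levels are compared between tissues and not between genes. A gene was called male-biased or female-biased when testis and ovary differed at an adjusted p under 0.05 in edgeR's quasi-likelihood test, with Benjamini-Hochberg adjustment over the 21815 genes tested, and all 9 were among these. Each adjusted p below comes from this test unless another is named. Of the 9 genes, tdrd7a, tdrd12 and tdrd9 were male-biased (3 of 9), tdrd5 was female-biased (1 of 9), and 5 did not pass. Among all genes tested, 36.7% were male-biased and 28.5% female-biased, or 65.2% in all. The share called among the 9 was 44.4%. Their median log2 fold change of testis over ovary was 0.70, against 0.45 over all genes tested. The RNA came from whole gonads, so a difference in the number of cells of a type and a difference in RNA per cell cannot be told apart.

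**Figure D1:**
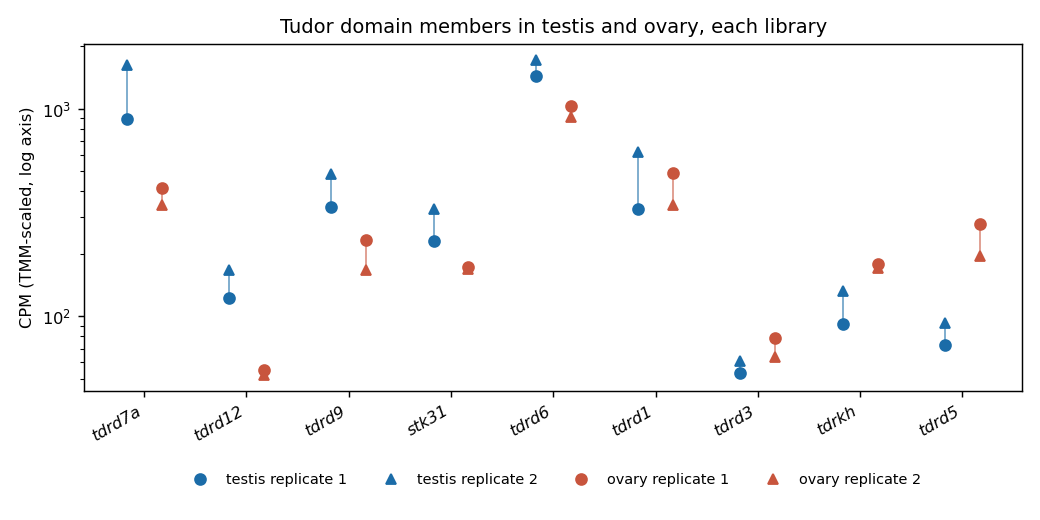
CPM of each Tudor domain gene (log axis) in the 2 testis libraries (blue) and the 2 ovary libraries (red), with a line joining replicates and genes ordered by fold change. CPM is not divided by gene length, so heights are to be compared within a gene. The testis points of tdrd7a, tdrd12 and tdrd9 lie above the ovary points, those of tdrd5 lie below them, and those of tdrd1 overlap them.

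The genes of piRNA production were examined first. tdrd12, which encodes a Tudor protein with a helicase domain needed for piRNAs in mouse and for germ cells in zebrafish, had 122 and 166 CPM in testes and 55.0 and 52.3 CPM in ovaries. Both testes lay above both ovaries, and the ovaries were nearly equal. Testes had 2.69-fold more tdrd12, a log2 difference of 1.43 ± 0.24 SE (adjusted p 0.00336). tdrd9, another helicase with a Tudor domain, which silences transposons in mouse male germ cells, had 337 and 487 CPM in testes and 233 and 168 CPM in ovaries. Its groups did not overlap either, and the log2 fold change was 1.04 ± 0.32 SE (adjusted p 0.0272). The call was lost when either of 2 libraries was left out. Without testis replicate 2 its log2 fold change was 0.74 (adjusted p 0.0902), and without ovary replicate 2 it was 0.73 (adjusted p 0.145).

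tdrd1, a scaffold that binds Piwi proteins in zebrafish germ cells, had 330.2 and 619 CPM in testes and 488 and 344 CPM in ovaries. It was the gene of the 9 whose groups overlapped, with testis replicate 1 below both ovaries and testis replicate 2 above both. The log2 fold change was 0.19 ± 0.40 (SE), with a 95% interval from -0.77 to 1.16, and did not pass (adjusted p 0.688). Its sign depended on single libraries, being -0.35 without testis replicate 2 and -0.14 without ovary replicate 2. tdrkh encodes a Tudor protein of the mitochondrial surface that takes part in the trimming of piRNAs in mouse. It had 91.8 and 132 CPM in testes and 178 and 171 CPM in ovaries. Both testes lay below both ovaries, but the log2 fold change of -0.64 ± 0.25 (SE) did not pass (adjusted p 0.0651). It was near the threshold, and passed with DESeq2 size factors (adjusted p 0.0489), with DESeq2's Wald test (adjusted p 0.0353) and without testis replicate 2 (adjusted p 0.0269). With 10 counts asked of every library it was -0.23 (adjusted p 0.398), and with library size scaling its sign was positive, at 0.10 (adjusted p 0.713). These settings also raised the median log2 fold change of the 9, from 0.70 to 1.11 and 1.45.

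The genes of granule structure came next. tdrd5 encodes a protein with LOTUS and Tudor domains that builds the granule of round spermatids in mouse. In zebrafish gonads it was the female-biased gene of the 9, with 73.2 and 92.5 CPM in testes and 279.8 and 196 CPM in ovaries. Both ovaries lay above the higher testis, and ovaries had 2.87-fold more tdrd5 (95% interval 1.80 to 4.57). Its log2 fold change was -1.52 ± 0.28 SE (adjusted p 0.00434). The call held with each library left out in turn, with adjusted p from 0.00607 to 0.0206.

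tdrd7a encodes another protein with LOTUS and Tudor domains, which shapes the same granule in mouse. It had 890.5 and 1616 CPM in testes and 416 and 345 CPM in ovaries, and its groups did not overlap. This was the largest fitted change among the 9, a log2 difference of 1.72 ± 0.44 SE (adjusted p 0.0146). The testes differed by 1.81-fold, and the log2 fold change ran from 1.21 to 2.08 with single libraries left out. Without ovary replicate 1 (adjusted p 0.0646) or ovary replicate 2 (adjusted p 0.0879) it did not pass. tdrd6, which in zebrafish binds the germ plasm organiser Buc, had 1437 and 1720.0 CPM in testes and 1029 and 913 CPM in ovaries. Both testes lay above both ovaries, but the log2 fold change of 0.70 ± 0.43 SE (adjusted p 0.192) did not pass, and its 95% interval reached from -0.34 to 1.75.

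The other genes of the 9 were stk31 and tdrd3. stk31 encodes a Tudor protein with a kinase domain, found in mouse male germ cells. It had 230.0 and 329 CPM in testes and 173 and 169.6 CPM in ovaries, where replicates differed by 1.02-fold. Groups did not overlap, yet the log2 fold change of 0.71 ± 0.27 (SE) did not pass (adjusted p 0.0559). Without testis replicate 1 it was 0.93. It passed with at least 10 counts in every library (1.11, adjusted p 0.00881) and with library size scaling (1.45, adjusted p 0.0048). With DESeq2 size factors it did not pass (0.63, adjusted p 0.0853). tdrd3 encodes a reader of methylated arginines on histones and RNA polymerase, and is widely expressed outside the germline in mammals. Its levels were 53.4 and 60.9 CPM in testes and 79.0 and 63.7 CPM in ovaries. The lower ovary was close to the higher testis, and the log2 fold change of -0.32 ± 0.23 SE (adjusted p 0.248) did not pass.

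**Figure D2:**
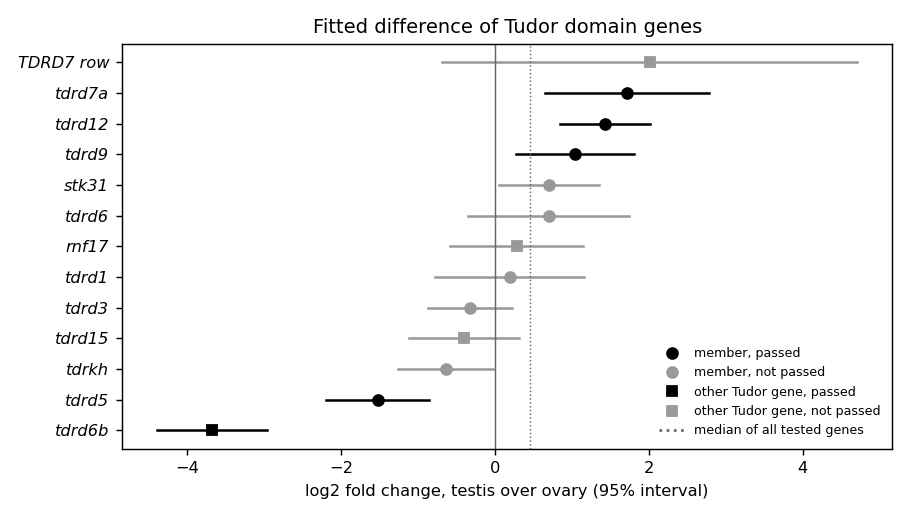
Log2 fold change of testis over ovary with its 95% interval for the 9 genes (circles) and 4 other Tudor genes (squares), black where the adjusted p was under 0.05. From the top of the 9, tdrd7a had 1.72, tdrd12 1.43 and tdrd9 1.04, and tdrd5 stood at the bottom of the 9 with -1.52. The sign of tdrd3 and tdrkh was positive with library size scaling, and the dotted line is the median of all genes tested, 0.45.

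The order of the log2 fold changes was tdrd7a, tdrd12, tdrd9, stk31, tdrd6, tdrd1, tdrd3, tdrkh and tdrd5. The 95% interval of each gene from tdrd7a to tdrkh overlapped that of the next gene in the order. Between tdrkh and tdrd5 the intervals also overlapped, from -1.25 to -0.02 for tdrkh and from -2.19 to -0.85 for tdrd5. At the ends of the order they did not, with 0.66 to 2.78 for tdrd7a. With TMM, the changes were smaller in size than the median change of all genes tested. These genes include ones at 0 counts in both ovaries, such as tekt1, and genes of like level were not compared separately. In all 9, the size of the log2 fold change was under 1.81, the median size over the 21815 genes tested. The gene with the largest change, tdrd7a, stood at the 47.9th percentile of size and tdrd1 at the 5.67th.

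Scaling moved all genes together. The median log2 fold change of all genes tested was 0.45 with TMM, 0.38 with DESeq2 size factors and 1.19 with library size scaling. Over all genes, 10412 were male-biased and 3833 female-biased with library size scaling, where TMM gave 8002 and 6217. A change of scaling shifts every gene by about the same amount, so the values of the 9 are given relative to the median with TMM. tdrd7a was 1.27 above it and tdrd12 was 0.98 above it. tdrd9 was 0.59 above it, and tdrd6 and stk31 were 0.25 and 0.26 above it. The values below the median were -0.26 for tdrd1, -0.77 for tdrd3, -1.09 for tdrkh and -1.97 for tdrd5. The raw values of tdrd3 (0.43) and tdrkh (0.10) were positive with library size scaling, whereas that of tdrd5 stayed negative at -0.76 and passed (adjusted p 0.0278).

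Replicates of a tissue differed in the same direction for all 9 genes. Each of the 9 was higher in testis replicate 2 than in testis replicate 1, as were 56.2% of all genes tested. The ratio of these libraries ran from 1.14 for tdrd3 to 1.88 for tdrd1, with a median of 1.43. Each of the 9 was also higher in ovary replicate 1 than in ovary replicate 2, as were 47.1% of all genes tested, and here the ratio ran from 1.02 for stk31 to 1.43 for tdrd5. Groups did not overlap in 8 of the 9, with both testes above in 5 and both ovaries above in 3. The same held for 84.7% of all genes tested, in 48.1% with both testes above and in 36.6% with both ovaries above.

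The makeup of the family was compared as the share of each gene in the summed counts of the 9, which is not corrected for gene length and is to be read between tissues. tdrd6 took 36.6% ± 5.21 (SD, n = 2) in testis and 36.4% ± 1.82 (SD, n = 2) in ovary, nearly the same share. tdrd7a took 28.0% ± 4.21 (SD, n = 2) in testis and 14.2% ± 0.045 (SD, n = 2) in ovary. tdrd5 took 1.91% ± 0.199 (SD, n = 2) in testis and 8.82% ± 1.02 (SD, n = 2) in ovary, and tdrkh took 2.55% ± 0.033 (SD, n = 2) in testis and 6.56% ± 0.698 (SD, n = 2) in ovary. The differences for tdrd7a, tdrd5 and tdrkh were larger than the spread between replicates, while that for tdrd6 was smaller. Larger too were those of tdrd1 (10.6% in testis, 15.4% in ovary), tdrd3 (1.33%, 2.66%), tdrd9 (9.39%, 7.43%) and tdrd12 (3.30%, 2.02%). That of stk31 (6.38%, 6.46%) was smaller. Shares are parts of 1 sum, so they are not independent of each other. A permutation test over 2 against 2 libraries cannot give a p below 0.333, so none was run on these shares.

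Both tissues hold cells that are not germ cells, so the 9 genes were also set against ddx4 (vasa), a gene of germ cells, in the same library. ddx4 had 563 and 817 CPM in testes and 262 and 179 CPM in ovaries. Counts of tdrd7a per count of ddx4 were 1.58 and 1.98 in testes and 1.59 and 1.93 in ovaries, and the groups overlapped. For tdrd12 they were 0.217 and 0.203 in testes and 0.210 and 0.292 in ovaries, which also overlapped. The other 7 of the 9 were lower per count of ddx4 in both testes than in both ovaries, as were 54.0% of all genes tested. ddx4 itself was male-biased, with a log2 fold change of 1.65. Genes with a smaller log2 fold change therefore tend to be lower per count of ddx4 in testes. dazl, another gene of germ cells, had -0.20 (adjusted p 0.561), and ratios to it were not computed. The direction of a ratio thus depends on the germ cell gene chosen, and it gives no level per germ cell. For tdrd9 the ratio to ddx4 was 0.599 and 0.596 in testes and 0.889 and 0.936 in ovaries, although tdrd9 itself was male-biased. tdrd5 had 0.130 and 0.113 in testes and 1.07 and 1.095 in ovaries, an 8.92-fold difference of the ratio. These ratios share their denominator and are not independent of each other.

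**Figure D3:**
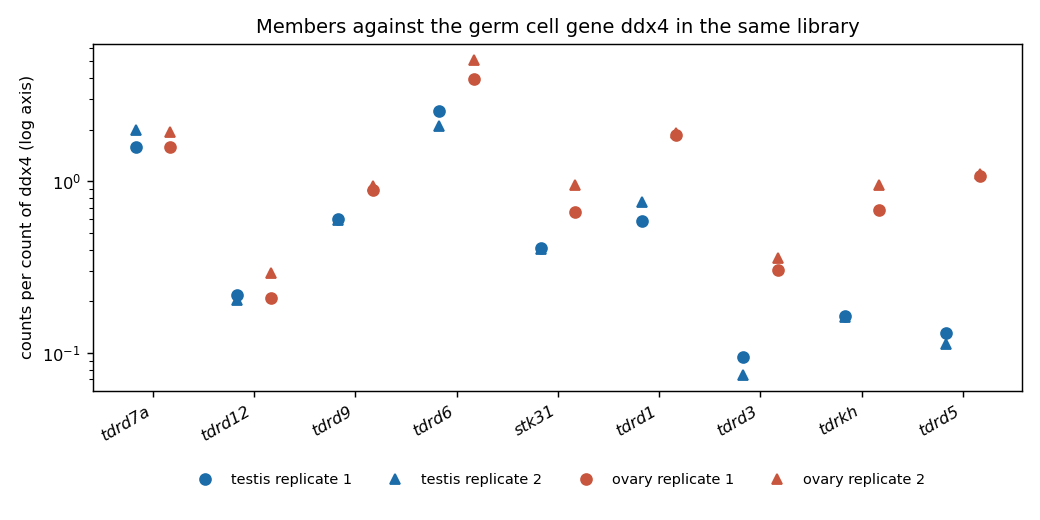
Counts of each Tudor domain gene per count of ddx4 in the same library (log axis), testes in blue and ovaries in red. Points of tdrd7a and tdrd12 overlap between the tissues, and for the other 7 genes both testis points lie below both ovary points, as for 54.0% of all genes tested. A ratio is not corrected for gene length and is to be compared within a gene.

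Related Tudor genes outside the 9 were examined after their values had been seen. tdrd6b (ENSDARG00000089954) had 37.9 and 45.3 CPM in testes and 596 and 466 CPM in ovaries. Ovaries had 12.8-fold more tdrd6b (95% interval 7.75 to 21.0), a log2 difference of -3.67 ± 0.30 SE (adjusted p 0.000296). There were 37.94 and 37.93 counts of tdrd6 per count of tdrd6b in the testes and 1.73 and 1.96 in the ovaries. tdrd6 (ENSDARG00000070052) and tdrd6b thus differed 20.6-fold in their ratio between the tissues. Reads that match both copies would be left out of both counts unless a setting keeps them, and how alike the copies are was not examined here.

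A row listed as TDRD7 (ENSDARG00000077523), beside that of tdrd7a (ENSDARG00000032808), had 41.4 and 45.0 CPM in testes and 20.4 and 0.941 CPM in ovaries. The symbol table does not say whether this row is tdrd7b. Testes were nearly equal, whereas the ovaries differed by 21.7-fold, with 385 and 14 counts. The log2 fold change was 2.01 ± 1.11 SE (adjusted p 0.153), and it was 5.52 without ovary replicate 1 (adjusted p 0.00223) and 0.997 without ovary replicate 2 (adjusted p 0.0382), so its size and its call depended on the ovary used. In tdrd7a the same ovaries differed by 1.20-fold. Of the testis soma markers, dmrt1 (33.4 and 0.807 CPM) differed between these ovaries in the same direction as the TDRD7 row. So did cyp11c1, with 3 and 0 counts. The markers amh (2.01 and 4.91 CPM), gsdf (7.31 and 14.9 CPM), insl3 (0.0529 and 0.336 CPM) and cyp17a1 (233 and 274 CPM) differed the other way. Genes of the other lists also went both ways. The spermatid marker tekt4 (1.43 and 0.202 CPM) went with the TDRD7 row, and msh4 of meiotic prophase (2.49 and 6.12 CPM) went the other way. The part of these differences in the TDRD7 row was not tested.

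**Figure D4:**
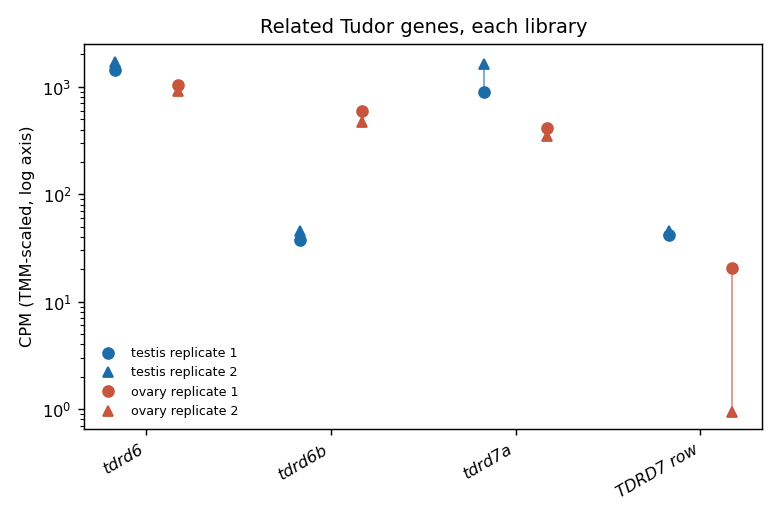
CPM (log axis) of tdrd6, tdrd6b, tdrd7a and the row listed as TDRD7 in each testis (blue) and ovary (red) library. tdrd6b stands at 37.9 and 45.3 CPM in testes and at 596 and 466 CPM in ovaries, and the ovary points of the TDRD7 row lie far apart at 20.4 and 0.941 CPM.

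Other genes with Tudor domains were then counted from a list of 24, of which 22 had an ID and 21 were tested. The share called was 71.4%, where all genes tested had 65.2% (36.7% male-biased and 28.5% female-biased). Of the 21, 5 were male-biased, 10 were female-biased and 6 did not pass, and their median was -0.48 on the log2 scale. The male-biased ones numbered 2 without testis replicate 2 or without ovary replicate 1. The germline Tudor genes tdrd15 (log2 fold change -0.40 ± 0.29 SE, adjusted p 0.269) and rnf17 (0.28 ± 0.35 SE, adjusted p 0.506), whose mouse counterpart acts in male germ cells, were among those that did not pass. Tudor genes with chromatin roles went both ways. phf19, a factor of the Polycomb complex that methylates histone H3, had 118 and 239 CPM in testes and 2.65 and 5.38 CPM in ovaries (log2 fold change 5.48, adjusted p 0.000519). kdm4aa and kdm4ab, related histone demethylases, passed in opposite directions, with log2 fold changes of 3.10 (adjusted p 0.000262) and -2.15 (adjusted p 0.000614). The histone methyltransferase setdb1a (-1.76), the DNA methylation cofactor uhrf1 (-1.63) and smn1 (-1.65), which assembles spliceosomal particles, were female-biased.

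Partners of the Tudor proteins were described in the same way. Of 13 listed Piwi proteins and piRNA factors, 10 were tested, and 4 were male-biased, 3 were female-biased and 3 did not pass. The share called was 70.0%, against 65.2% of all genes tested. piwil1, a Piwi protein that Tdrd1 binds in zebrafish, had 1502 and 1662 CPM in testes and 211 and 153 CPM in ovaries, a log2 difference of 3.12 ± 0.41 SE (adjusted p 0.0014). piwil2, the other Piwi protein, had a log2 difference of 0.87 ± 0.23 SE (adjusted p 0.0166). All 9 Tudor genes were lower per count of piwil1 in both testes than in both ovaries, by 2.78-fold for tdrd7a and up to 25.1-fold for tdrd5. The same held for 68.1% of all genes tested. piwil1 had a larger log2 fold change than any of the 9, so lower ratios in testes follow from the choice of denominator. pld6, a mitochondrial protein of piRNA production, was male-biased (2.06), while asz1 (-1.80), gtsf1 (-1.89) and fkbp6 (-1.43) were female-biased. Without ovary replicate 2, 2 of the 10 were male-biased.

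Of 5 listed genes of arginine methylation, 4 were tested, and all 4 were female-biased, as were 28.5% of all genes tested. The list was chosen with earlier results of these data known, so its count is a description only. The 4 were 2 methyltransferases and 2 cofactors, and their median log2 value was -1.71. prmt5, which makes the mark that germline Tudor domains read, had 45.1 and 73.8 CPM in testes and 214.5 and 144 CPM in ovaries (log2 fold change -1.59 ± 0.33 SE, adjusted p 0.00734). Its cofactors clns1a (-2.11) and riok1 (-1.62), and prmt1 (-1.80), which makes another form of methylated arginine, passed in the same direction. Among partners of tdrd3, the topoisomerase gene top3b was female-biased (-1.05 ± 0.26 SE, adjusted p 0.0129), as were fmr1 (-2.18) and fxr2 (-2.50). fxr1 had -0.22 and did not pass.

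Genes of the germ plasm and of meiosis had larger log2 fold changes in size than any of the 9, apart from dazl and rfx2. Of 6 tested genes listed under germ plasm, 4 were female-biased and 1 was male-biased, against 28.5% and 36.7% of all genes tested. buc, whose protein binds Tdrd6 in zebrafish, had 18.6 and 20.1 CPM in testes and 2119 and 1553 CPM in ovaries, a log2 difference of -6.57 ± 0.49 SE (adjusted p 0.000252). The male-biased gene was nanos2, a gene of germline stem cells, with 57 and 70 counts in testes and 0 and 1 in ovaries. dazl, an RNA-binding protein of germ cells, did not pass (-0.20 ± 0.28 SE, adjusted p 0.561). All 7 tested genes of meiotic prophase were male-biased, as were 36.7% of all genes tested. The median of the 7 was 8.18 on the log2 scale. Of the regulators of meiotic genes, rfx2, a factor of spermatid genes in mouse, did not pass (0.81, adjusted p 0.0576). mybl1, whose mouse counterpart turns on piRNA genes in spermatocytes, had 111 and 161 CPM in testes and 9.58 and 6.18 CPM in ovaries (log2 fold change 4.11 ± 0.35 SE, adjusted p 0.000331).

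**Figure D5:**
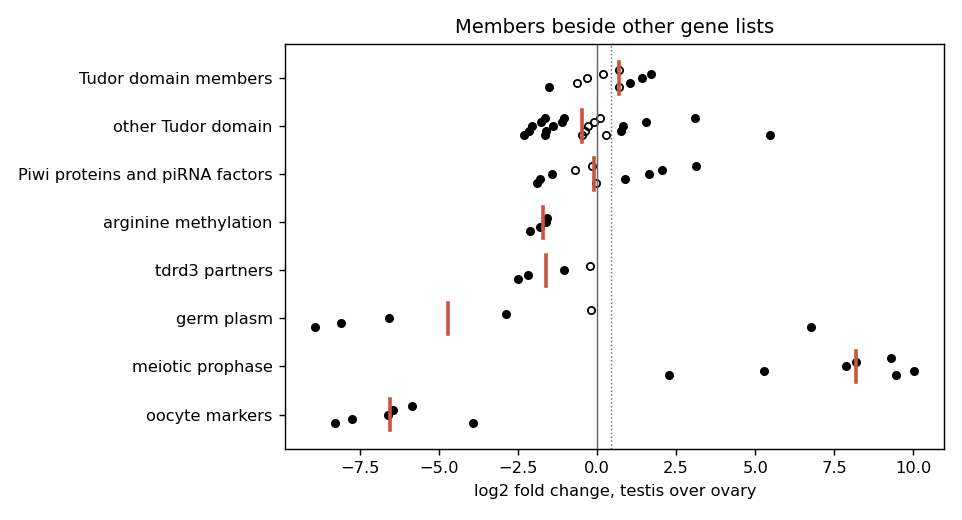
Log2 fold change of testis over ovary of the 9 Tudor domain genes and of 7 other gene lists, each point a gene, filled where it passed (adjusted p under 0.05), with the list median in red. The 9 lie between -1.52 and 1.72, while oocyte markers have a median of -6.54 and meiotic prophase genes one of 8.18. With library size scaling the values of tdrd3 and tdrkh are positive.

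Markers of cell types differed along with the tissues. Among all genes tested, 36.7% were male-biased and 28.5% female-biased. All 6 oocyte markers were female-biased, with sums of 35.0 and 24.5 CPM in testes and 5489 and 3423 CPM in ovaries, and none was at 0 in any library. The testes differed in single ovary transcripts, in both directions. Testis replicate 1 had more counts of zar1 (61 and 6), zp3b (327 and 113) and mos (57 and 46). So it did for ca15b of the germ plasm list (165 and 0). Testis replicate 2 had more counts of gdf9 (51 and 155), bmp15 (29 and 48) and figla (8 and 16). All 5 tested spermatid markers were male-biased, with sums of 758 and 789 CPM in testes and 21.7 and 18.7 CPM in ovaries, where tekt1 and tssk6 were at 0. Of 6 tested markers of the testis soma, 5 were male-biased. All 6 summed to 2409 and 1661 CPM in testes and 276 and 295 CPM in ovaries. Of the ovary sums, cyp17a1 alone made up 233 and 274 CPM. cyp17a1 was female-biased, a call that was lost without testis replicate 2, without ovary replicate 1 and without ovary replicate 2. No marker of the ovary soma list was matched. Leukocyte markers (2 of 3 tested male-biased, and 1 without testis replicate 1) summed to 45.7 and 36.7 CPM in testes and 7.78 and 11.8 CPM in ovaries. The blood markers hbaa1 (1.04, adjusted p 0.247) and alas2 (1.81, adjusted p 0.103) did not pass and summed to at most 11.6 CPM in any library. Liver markers summed to at most 22.9 CPM, and 2 of 3 tested were male-biased, 1 without testis replicate 1 and 0 without ovary replicate 1 or without ovary replicate 2. The part of these cells in the differences of the Tudor genes was not tested. With each library left out in turn, the log2 fold change ran from 1.17 to 1.62 for tdrd12 and from 1.21 to 2.08 for tdrd7a. It ran from 0.73 to 1.30 for tdrd9 and from -1.85 to -1.24 for tdrd5. Whether these shifts have to do with such cells was not tested.

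The genes most like tdrd1 and tdrd6 in level were listed by their distance in log2(CPM + 1) over the 4 libraries. For tdrd1 these were ipo7 (distance 0.48), eif5a (0.54) and scrib (0.56). For tdrd6 they were huwe1 (0.50), rplp0 (1.07) and rps2 (1.25). The distance is a description of 4 libraries without a correction for length.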

How the data were processed

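RNA was extracted from single gonads, depleted of ribosomal RNA and made into stranded libraries per the labels. The study's methods describe polyadenylated libraries for its adult fish and may not cover these. The authors aligned reads with HISAT2 2.0.5 to GRCz11 (Ensembl annotation), used SAMtools 1.5 to remove duplicates, and obtained gene counts from HTSeq 0.9.1. Removing duplicates would compress abundant genes. The deposited values are raw counts, whole numbers. Symbols were found for 29201 of 32520 IDs.

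Counts were filtered with filterByExpr and tested in R 4.3.3 with edgeR 4.0.16 (quasi-likelihood test with legacy = FALSE, TMM, Benjamini-Hochberg), testis over ovary. SE is the size of the log2 fold change divided by the square root of F. Chi-square per degree of freedom between replicates was 31.5 for testis and 56.7 for ovary, so each library was kept as a replicate. Alternatives were DESeq2 1.42.0, other scalings, filters and thresholds, a replicate block and each library left out, and the legacy edgeR test was added after seeing the data. The pipeline was run on simulated data with 200 genes changed, far fewer than the 14219 called here. That run therefore does not test the scaling. Named genes are the 9, listed partners and markers, and the 3 nearest genes to tdrd1 and to tdrd6. The genes and lists were chosen with earlier results of these data known.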

Additional observations from a re-analysis of the deposited data

How the results depend on the processing

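tdrd12 and tdrd5 were called in every alternative. The number of male-biased Tudor genes, 3, was 5 with library size scaling (tdrd6 and stk31 added). With at least 10 counts in every library it was 4 (stk31 added). It was 1 at an adjusted p under 0.01, against a minimum fold change of 2, and with the replicate block. The number of female-biased ones, 1, was 2 with DESeq2 size factors and with DESeq2's Wald test. The median log2 fold change of the 9, 0.70, was 1.45 with library size scaling and 1.11 when 10 counts were asked of every library. Of all genes, 3833 were female-biased with library size scaling and 4045 against a minimum fold change of 2, where the main value is 6217. Male-biased genes numbered 10412 with library size scaling and 6301 against a minimum fold change of 2. They numbered 4566 with at least 10 counts in every library and 5258 at an adjusted p under 0.01, where the main value is 8002. The filter of 10 counts removes genes near 0 in 1 tissue, such as tekt1, which then cannot be called. The number 4566 is thus counted over another set of genes than 8002. The value of tdrd3 was 0.43 and that of tdrkh 0.10 with library size scaling, and tdrd3 was 0.0918 with at least 10 counts in every library. Relative to the median of all genes tested, tdrd3 was -0.77 with TMM and -0.76 with library size scaling. On the same measure tdrkh was -1.09 with both. The cause of the shift with at least 10 counts in every library was not tested.

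With single libraries left out, the lone library of a tissue was assumed to vary like the other tissue. Male-biased Tudor genes then ran from 1 to 4 and female-biased ones from 1 to 2, and their median from 0.41 to 0.82. The number 1 came without ovary replicate 2, where tdrd7a and tdrd9 did not pass. Over all genes, male-biased counts ran from 5424 to 7193 and female-biased counts from 5043 to 5772. tdrd1 ran from -0.35 to 0.57.

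The labels do not say that replicate numbers pair fish, and deviations of same-numbered libraries correlated at -0.03 over genes. With the replicate block, 7191 genes were male-biased and 5610 female-biased, and tdrd7a (adjusted p 0.0547) and tdrd9 (adjusted p 0.0675) did not pass. The legacy edgeR test called the same 4 Tudor genes. With 2 libraries a tissue, the 95% intervals of the 5 genes that did not pass leave room for differences. The intervals of tdrd1, tdrd3 and tdrd6 spanned both signs. That of stk31 (0.06 to 1.35) was positive throughout and that of tdrkh (-1.25 to -0.02) negative throughout. Unlike the adjusted p, the intervals carry no adjustment for the number of genes tested.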
